A study of Mus musculus with 10 samples.

Results

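The BCL2 family genes described here are 10 rows of the count table, chosen by name from 29700 gene rows. There are 6 pro-survival genes (Bcl2, Bcl2l1, Mcl1 and the A1 copies Bcl2a1a, Bcl2a1b and Bcl2a1d) and 4 pro-death genes (Bax, Bak1, Bid and Bcl2l11). All 10 had a row, and all 10 passed the filter on low counts that left 12654 genes for testing. RNA came from thioglycollate-elicited peritoneal macrophages of C57BL/6 mice aged 8 weeks, in 5 control and 5 ox-LDL libraries. The ox-LDL cells were primed with LPS (100 ng/ml), a bacterial endotoxin, and then given oxidized low-density lipoprotein (100 µg/ml) for 16 h by the labels, while the control cells are labelled untreated, although the protocol text shared by all 10 libraries names ox-LDL. LPS and ox-LDL were thus never given singly, and their effects cannot be told apart; one legend in the study leaves it unclear if control cells had LPS too, and the labels were followed. The labels name 5 biological replicates per group but give neither the sex of the mice nor whether cells of several mice were pooled.

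Proteins of the BCL2 family decide whether the outer mitochondrial membrane stays intact. Bax and Bak1 form the pores that release cytochrome c, BH3-only proteins such as Bid and Bim (the product of Bcl2l11) switch them on, and Bcl-2, Bcl-xL, Mcl-1 and A1 hold both kinds in check. In macrophages, A1 and Mcl-1 are known as short-lived survival proteins whose transcripts respond to inflammatory signals. All values here are of RNA. Isoforms of one gene, such as the long and short forms of Bcl2l1, Mcl1 and Bcl2l11, are not separated by counts per gene, and proteins were not measured.

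In the mouse, A1 is encoded by several near-identical genes on chromosome 9, and the assignment of reads among them bears on the values of each copy. In the mouse build mm9, Bcl2a1d (NCBI gene 12047) lies at chr9:88618126-88626708 on the minus strand, Bcl2a1a (12044) at chr9:88851738-88857254 on the plus strand and Bcl2a1b (12045) at chr9:89094047-89102665 on the plus strand. The short copy Bcl2a1c (12046), which was not among the 10 genes, lies apart from them at chr9:114239253-114239696. In the GENCODE vM1 transcripts (mm9), the coding sequences of the 3 longer copies have 519 bases each and differ from one another at 6 to 11 bases, an identity of 97.88% to 98.84%. The first 300 coding bases are shown because they hold 7 of the 12 positions at which the copies differ. These positions, in capitals, are where a read can tell the copies apart, and the long lower-case stretches are shared by all 3.
Bcl2a1a: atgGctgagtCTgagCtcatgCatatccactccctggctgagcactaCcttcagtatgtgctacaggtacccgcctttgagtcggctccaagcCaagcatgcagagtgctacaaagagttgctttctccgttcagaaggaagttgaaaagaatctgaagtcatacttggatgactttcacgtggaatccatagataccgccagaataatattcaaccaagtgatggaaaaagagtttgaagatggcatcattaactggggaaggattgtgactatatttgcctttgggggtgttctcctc
Bcl2a1b: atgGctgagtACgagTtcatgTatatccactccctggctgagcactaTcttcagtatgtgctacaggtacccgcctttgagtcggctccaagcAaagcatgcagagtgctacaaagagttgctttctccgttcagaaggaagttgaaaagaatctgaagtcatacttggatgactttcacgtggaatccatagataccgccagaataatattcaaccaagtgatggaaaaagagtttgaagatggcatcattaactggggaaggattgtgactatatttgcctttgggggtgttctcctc
Bcl2a1d: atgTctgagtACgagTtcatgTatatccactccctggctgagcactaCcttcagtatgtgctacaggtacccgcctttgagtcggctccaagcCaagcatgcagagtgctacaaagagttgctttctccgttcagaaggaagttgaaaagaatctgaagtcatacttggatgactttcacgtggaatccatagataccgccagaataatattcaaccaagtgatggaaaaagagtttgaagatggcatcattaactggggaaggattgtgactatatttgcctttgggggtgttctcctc

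The promoters of these copies were about as alike where they could be aligned. The RefSeq windows (from GRCm38.p6) that run from 250 bases before to 50 bases after the start site were each found once, without a mismatch, in mm9, at chr9:88851508-88851807 (Bcl2a1a, plus strand), chr9:89093861-89094160 (Bcl2a1b, plus strand) and chr9:88626639-88626938 (Bcl2a1d, minus strand). They are shown beside the coding sequences because the copies changed by different amounts. Where windows could be aligned, 97.96% to 99.22% of bases were identical, and the window of Bcl2a1b is shifted along the shared sequence. Capitals mark a base that is aligned to a different base in at least 1 of the other copies. Unaligned bases are neither marked nor counted, among them a short run that Bcl2a1a and Bcl2a1b hold and Bcl2a1d lacks.
Bcl2a1a: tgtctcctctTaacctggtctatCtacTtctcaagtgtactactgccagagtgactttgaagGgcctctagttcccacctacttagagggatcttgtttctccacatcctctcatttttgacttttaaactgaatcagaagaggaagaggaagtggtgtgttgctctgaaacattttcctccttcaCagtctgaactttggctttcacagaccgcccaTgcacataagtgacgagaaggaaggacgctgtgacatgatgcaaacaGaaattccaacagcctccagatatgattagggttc
Bcl2a1b: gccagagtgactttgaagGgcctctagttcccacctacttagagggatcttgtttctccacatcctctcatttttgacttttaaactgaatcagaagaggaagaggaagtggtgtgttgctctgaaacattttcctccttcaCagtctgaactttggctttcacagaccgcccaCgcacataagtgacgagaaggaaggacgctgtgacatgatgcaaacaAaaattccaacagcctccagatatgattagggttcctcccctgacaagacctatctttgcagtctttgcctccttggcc
Bcl2a1d: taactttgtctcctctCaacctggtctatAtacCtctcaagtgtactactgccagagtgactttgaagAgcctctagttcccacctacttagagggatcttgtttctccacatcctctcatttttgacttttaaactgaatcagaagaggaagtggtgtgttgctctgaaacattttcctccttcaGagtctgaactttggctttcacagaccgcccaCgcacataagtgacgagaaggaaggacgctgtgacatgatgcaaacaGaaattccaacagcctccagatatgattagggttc

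Levels are given as CPM, the count of a gene scaled to a common library size with TMM factors, or as FPKM, the deposited value per length of the gene. The total count was 20094647 to 20687289 per control library and 19257131 to 20358017 per ox-LDL library, and TMM factors were 0.5926 to 1.193, with the lowest in ox-LDL replicate 2. That library also had relatively high counts of short genes: across genes, which are not independent, Spearman's rho between length and the deviation from the group average was -0.65. It was -0.57 and -0.46 in control replicates 1 and 4, and between 0.06 and 0.52 in the remaining libraries. The A1 genes and Bax are short, with lengths implied by counts and FPKM of 626 to 748 bases, against 1736 to 4468 bases for the other members. Macrophage markers were abundant in every library, with a sum over 8 genes of 23100 to 42800 CPM by library size in control and 13000 to 28200 in ox-LDL libraries. B cell markers summed to at most 3.52 CPM and T and NK cell markers to at most 2.13 in any library. The defining genes Cd3e and Cd8a were at 0 in 9 and 7 libraries. Of 9 neutrophil markers with a row, the sum was 61.2 to 137 CPM in control and 79.1 to 201 in ox-LDL libraries, mostly Csf3r, Mmp8 and S100a8, while S100a9 was at 0 in 8 libraries. Dendritic cell markers summed to 1.37 to 2.73 and 2.27 to 4.00 CPM, and markers of eosinophils and mast cells to 3.30 to 12.2 and 0.626 to 3.60. Only the sum for mesothelial and stromal genes was apart between the groups, at 14.4 to 49.4 CPM in control and 60.0 to 141 in ox-LDL libraries, most of it Dcn. In edgeR, 2 of the 4 tested genes of this list rose (adjusted p under 0.01) and 0 fell. Of its stromal genes, Dcn was at 10.7 to 35.8 CPM in control and 53.1 to 98.0 in ox-LDL libraries. Col1a1 was at 1.23 to 5.26 and 5.12 to 32.9 CPM, and Pdgfra at 1.28 to 7.66 and 0.76 to 25.0. The defining mesothelial gene Msln was at 0 in 3 libraries and at most 0.319 CPM, which does not speak to the stromal genes. Whether mesothelial or stromal cells had a part in the values below was not tested. In bulk RNA, fewer cells of a type and less RNA per cell cannot be told apart.

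Of the 10 genes, 3 rose and 1 fell in ox-LDL-treated macrophages at an adjusted p below 0.01 in edgeR's quasi-likelihood test. The genes that rose were Bcl2a1a, Bcl2a1d and Bid, and the gene that fell was Bcl2l11. The count of members that rose was 0 without a filter on low counts, where Bcl2l11 was still called lower. Among all genes tested, 9.4% rose and 5.35% fell at that threshold (14.7% in either direction). When the fold change also had to exceed 2 in size on the log2 scale, Bcl2a1a and Bcl2a1d remained, against 4.78% of all genes that rose and 1.93% that fell. In TMM-scaled CPM, the 5 control and 5 ox-LDL libraries did not overlap for 5 members, 4 higher and 1 lower. The same held for 20.7% of all genes, with 11.6% higher and 9.11% lower. A positive fold change was fitted for 8 of 10 members and 56.2% of all genes. The median log2 fold change was 0.91 over the 6 pro-survival genes and 0.55 over the 4 pro-death genes, against 0.10 over all genes. The first median leans on the A1 copies, which are 3 of the 6 genes and share most of their sequence. Summed as 1 gene, A1 had 1.79, beside 0.52 for Mcl1, 0.04 for Bcl2l1 and -0.38 for Bcl2. The medians thus do not rank the 2 sides of the family.

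**Figure D1:**
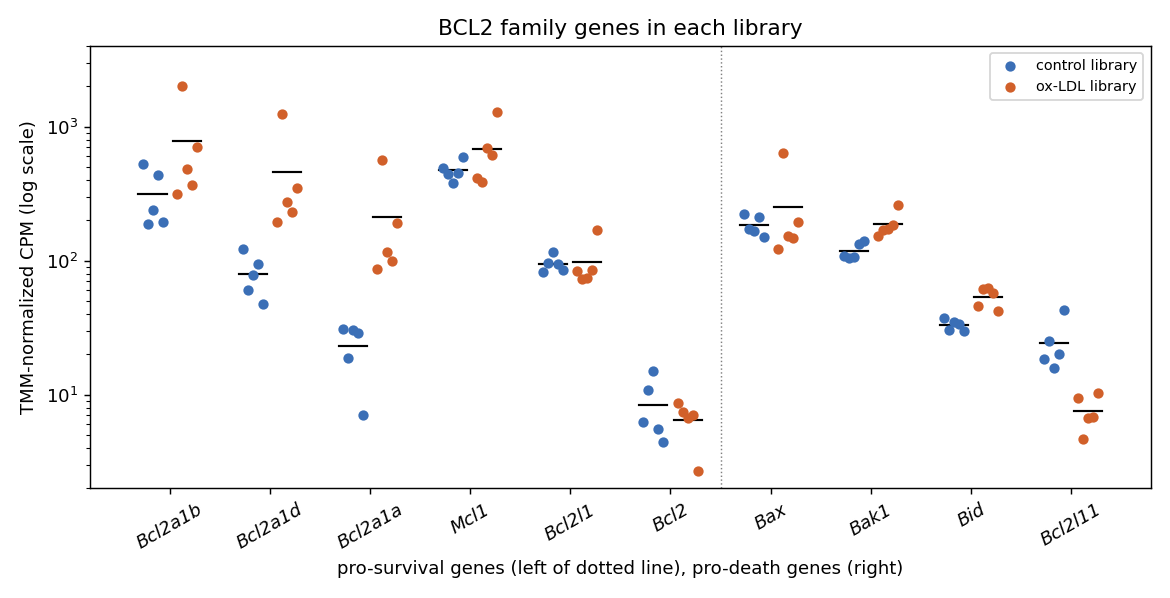
TMM-normalized CPM (vertical, log scale) of each BCL2 family gene in 5 control (blue) and 5 ox-LDL libraries (orange), replicates 1 to 5 from left to right within each group, with the group mean as a black line. The groups do not overlap for Bcl2a1a, Bcl2a1d, Bak1 and Bid, which are higher in ox-LDL libraries, and for Bcl2l11, which is lower. Ox-LDL replicate 2 is far above the rest for the A1 copies and Bax.

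Of the 6 pro-survival members, the A1 copies Bcl2a1a and Bcl2a1d passed the test. Bcl2a1a was at 30.6, 18.8, 30.2, 29.0 and 7.04 CPM in control replicates 1 to 5 and at 86.4, 564, 116, 99.4 and 191 CPM in ox-LDL replicates 1 to 5. The lowest ox-LDL value exceeded the highest control value. On the log2 scale the change was 3.19 (standard error 0.59, adjusted p = 0.00209, edgeR), a 9.13-fold higher fitted level. Without ox-LDL replicate 2 the log2 fold change was 2.37 (adjusted p = 9.07e-04), and without this library, control replicate 5 and ox-LDL replicate 5 it was 1.83. The call was lost without a filter on low counts (adjusted p = 0.015).

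Bcl2a1d was at 121, 60.1, 78.5, 93.6 and 47.1 CPM in control libraries and at 195, 1245, 272, 231 and 350 CPM in ox-LDL libraries. Again no ox-LDL library reached down to the controls. The change was 2.52 on the log2 scale (standard error 0.53, adjusted p = 0.00425, edgeR), or 5.73-fold. It was 1.67 without ox-LDL replicate 2. The adjusted p was 0.0121 to 0.0145, above the threshold, when control replicate 2, 3, 4 or 5 was left out. Without a filter on low counts it was 0.0148.

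Bcl2a1b, the most abundant copy, did not pass the test. It was at 525, 188, 237, 435 and 193 CPM in control libraries and at 313, 2023, 479, 368 and 702 CPM in ox-LDL libraries. The groups overlapped, since controls 1 and 4 lay within the ox-LDL range. Its fold change on the log2 scale was 1.3 (standard error 0.53, adjusted p = 0.0924, edgeR), and 0.52 without ox-LDL replicate 2. With each library's trend on gene length removed it was 1.26 with an adjusted p of 0.00143. Bcl2a1b overlaps Mthfs, a folate enzyme gene on the same strand, whose mean CPM was 42.1 ± 15.4 in controls and 35.1 ± 35.7 with ox-LDL (SD, n = 5 per group).

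Because the copies share most of their sequence, their counts were also added up. The 4 copies together, Bcl2a1c included, were at 687, 269, 350, 568 and 250 CPM in control libraries and at 602, 3896, 879, 709 and 1258 CPM in ox-LDL libraries. Only control replicate 1 lay above the lowest ox-LDL library. For the sum, the change on the log2 scale was 1.79 (standard error 0.54, adjusted p = 0.0287, edgeR), which did not pass the threshold of 0.01, and an exact permutation test over all arrangements of the 10 libraries gave a two-sided p = 0.0159. The adjusted p was 1.48e-04 with the length trend removed and 0.00336 with DESeq2. Without ox-LDL replicate 2 the log2 fold change of the sum was 0.98.

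The makeup of the A1 reads differed between the groups in every library. Bcl2a1b took 76.5%, 69.7%, 67.6%, 76.5% and 77.1% of the A1 reads in control replicates 1 to 5 and 52.0%, 51.9%, 54.4%, 51.9% and 55.7% in ox-LDL replicates 1 to 5. The share fell from 73.5% ± 4.49 to 53.2% ± 1.79 (SD, n = 5 each; two-sided exact permutation test, p = 0.00794, the smallest that 5 libraries against 5 allow). This measure was chosen after the values were seen. It compares genes within a library and so does not depend on how libraries were scaled.

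In the place of Bcl2a1b, Bcl2a1a took 5.60% ± 2.26 of the A1 reads in control and 14.2% ± 0.736 in ox-LDL libraries, and Bcl2a1d took 19.5% ± 2.72 and 31.1% ± 1.96 (SD, n = 5 each; exact permutation test, p = 0.00794 for each). The share of Bcl2a1c was 1.37% ± 0.313 and 1.41% ± 0.163 (p = 0.786 in the same exact test). The shares of the copies add up to the whole, so these tests are not independent of the one for Bcl2a1b. Ox-LDL replicate 2, which stood far above the rest in level, had nearly the same shares as the other ox-LDL libraries. The share of Bcl2a1b was 52.4% to 56.4% in ox-LDL and 68.2% to 77.1% in control libraries when taken from FPKM in place of counts. The way in which reads that match several copies were assigned is not stated, and the bases in capitals in the sequences above are few, so the shares are those of the authors' assignment.

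**Figure D2:**
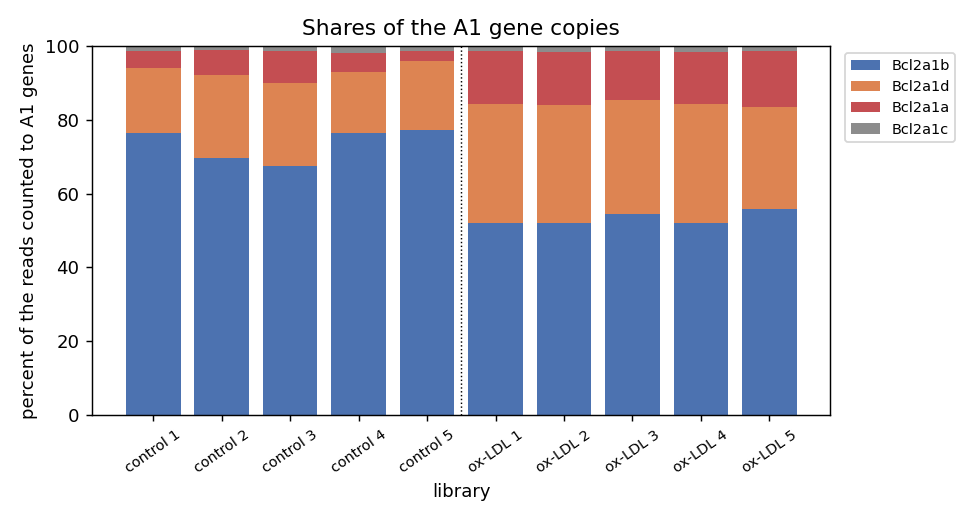
Share of reads counted to each A1 gene copy (vertical, percent of the 4 copies together) in each of the 10 libraries, controls left of the dotted line. Bcl2a1b takes 67.6% to 77.1% in control and 51.9% to 55.7% in ox-LDL libraries, and Bcl2a1a and Bcl2a1d take larger shares in every ox-LDL library.

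Outside the family, the genes whose log2 CPM followed the summed A1 level most closely over the 10 libraries were Mrpl39, a mitochondrial ribosomal protein gene (Pearson r = 0.987), Insl6, a relaxin-like hormone gene (0.986), and Crem, a cAMP-responsive transcription factor gene (0.981). Within the 5 control libraries r was 0.89 to 0.95, and within the 5 ox-LDL libraries it was 0.99 to 1.00. The libraries share the differences in length trend described above, so these values are a description and no test was made. Among the members, Bcl2a1d and Bax had a correlation of 0.97 once the group means were taken off, although Bax did not follow the groups. Ox-LDL replicate 2 weighs heavily in every correlation that includes it. The A1 sum was at 3896 CPM in this library against 1258 in ox-LDL replicate 5, the next highest. Bcl2a1d was at 1245 against 350 CPM and Bax at 635 against 193 CPM in the same 2 libraries. Correlations without ox-LDL replicate 2 were not computed.

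The pro-survival genes Mcl1, Bcl2l1 and Bcl2 did not pass the test. Mcl1 (NCBI gene 17210, chr3:95462643-95467099, plus strand) was at 495, 443, 380, 453 and 597 CPM in control libraries and at 410, 385, 692, 617 and 1284 CPM in ox-LDL libraries. Ox-LDL replicates 3, 4 and 5 were above every control, whereas replicates 1 and 2 were among them. On the log2 scale the change was 0.52 (standard error 0.33, adjusted p = 0.274, edgeR) and 0.14 without ox-LDL replicate 5.

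Bcl2l1 (12048, chr2:152593052-152657464, minus strand), which encodes Bcl-xL, was at 81.5, 95.1, 116, 94.5 and 85.7 CPM in control libraries and at 83.6, 73.3, 74.0, 84.9 and 169 CPM in ox-LDL libraries. Apart from ox-LDL replicate 5, which was highest of all, each ox-LDL library lay below at least 4 of the 5 controls. The fitted change on the log2 scale was 0.04 (standard error 0.25, adjusted p = 0.937, edgeR), and without ox-LDL replicate 5 its sign turned, at -0.27 (adjusted p = 0.246).

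Bcl2 (12043, chr1:108434755-108610851, minus strand) was the least abundant member per length in control libraries. It was at 6.25, 10.9, 15.0, 5.51 and 4.43 CPM in the controls and at 8.61, 7.36, 6.63, 6.98 and 2.69 CPM with ox-LDL. The control libraries were spread over a range that held all ox-LDL libraries but the lowest. The change of -0.38 on the log2 scale (standard error 0.38, adjusted p = 0.496, edgeR) did not pass. The length implied by its counts and FPKM varied from 2685 to 5002 bases between libraries, more than for any other member, so the FPKM values of Bcl2 are the least certain.

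Among the pro-death genes, only Bcl2l11 (12125, chr2:127951774-127988283, plus strand) had a negative log2 fold change over all 10 libraries. Its product Bim is a BH3-only protein that binds every pro-survival member of the family. It was at 18.5, 25.0, 15.7, 20.2 and 42.7 CPM in control libraries and at 9.48, 4.62, 6.63, 6.79 and 10.2 CPM in ox-LDL libraries. The highest ox-LDL library was below the lowest control. The change on the log2 scale was -1.69 (standard error 0.31, adjusted p = 0.00178, edgeR), a 3.23-fold lower fitted level. With control replicate 5, the highest library, left out it was -1.40 (adjusted p = 0.00266), and over all 10 libraries left out in turn it was -1.84 to -1.40.

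The promoter window at the upstream of the 2 RefSeq start sites of Bcl2l11 is shown because this gene fell and because FOXO factors, of which Foxo3 is one, are known to act on Bcl2l11. It lies at chr2:127951524-127951823 on the plus strand of mm9, where the RefSeq sequence (GRCm38.p6) was found once without a mismatch. Capitals mark the FOXO core motif GTAAACA, searched on both strands, which is held by 3.66% of 32544 promoter windows of the same length.
Bcl2l11: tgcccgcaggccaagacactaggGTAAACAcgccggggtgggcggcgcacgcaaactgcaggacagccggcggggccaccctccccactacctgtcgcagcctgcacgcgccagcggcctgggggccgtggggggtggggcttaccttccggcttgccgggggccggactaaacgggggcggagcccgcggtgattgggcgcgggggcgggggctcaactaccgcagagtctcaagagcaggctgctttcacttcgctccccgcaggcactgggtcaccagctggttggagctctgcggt

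Of all windows of the 10 genes and Bcl2a1c, this was the only one with the FOXO core. A kappaB motif, searched on both strands, was found only in 1 of the 3 start site windows of Bcl2l1, against 4.53% of all windows, and in none of the A1 windows shown above. The interferon-response core motif (ISRE core), searched likewise, was in none of the members' windows, against 3.45% of all windows. A match, or the lack of one, in 300 bases describes these letters alone.

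Bid (12122, chr6:120841948-120866871, minus strand), whose product is cut by caspase-8 and then turns on Bax and Bak1, was at 37.4, 30.3, 34.7, 33.5 and 29.8 CPM in the controls and at 45.6, 61.5, 62.6, 57.6 and 42.1 CPM with ox-LDL. All ox-LDL libraries were above all controls in CPM. In FPKM the groups of Bid overlapped, with ox-LDL replicates 2 and 5 at 20.6 and 19.9 and the controls at 18.6 to 23.2. Its change on the log2 scale was 0.70 (standard error 0.17, adjusted p = 0.00865, edgeR), a 1.63-fold higher level that lay close to the threshold. Leaving out any control library, or ox-LDL replicate 3 or 4, raised the adjusted p to between 0.0156 and 0.0314, and with libraries scaled by size alone it was 0.14. Bid overlaps Bcl2l13 on the opposite strand, and no source used here says if strand was used in counting. Bcl2l13 had a similar log2 fold change of 0.67 (adjusted p = 0.0322).

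Bak1 (12018, chr17:27156755-27165954, minus strand) was at 108, 105, 106, 132 and 140 CPM in the controls and at 152, 169, 171, 184 and 258 CPM with ox-LDL. Its groups did not overlap in CPM either, whereas in FPKM ox-LDL replicate 2, at 53.2, lay within the controls (52.4 to 86.2). The change of Bak1 on the log2 scale was 0.66 (standard error 0.20), nearly that of Bid. The adjusted p of 0.0274 from edgeR did not pass 0.01, whereas DESeq2 gave 0.00638 and the fit with the length trend removed gave 0.00963. No other of 24 alternative fits passed. The adjusted p was 0.128 without a filter on low counts and 0.19 with libraries scaled by size alone. By limma on log2(FPKM + 1) it was 0.187, and 0.311 without a filter. The opposite-strand gene Ggnbp1 was at most 0.622 CPM in the mean of either group.

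Bax (12028, chr7:52717065-52722268, minus strand) was at 222, 173, 165, 211 and 151 CPM in the controls and at 122, 635, 153, 147 and 193 CPM with ox-LDL. Only ox-LDL replicate 2 stood above the controls. On the log2 scale its change was 0.44 (standard error 0.42, adjusted p = 0.487, edgeR) and turned to -0.30 (adjusted p = 0.206) without that library. Without ox-LDL replicate 2, ox-LDL replicate 5 and control replicate 5 it was -0.51 (adjusted p = 0.0331).

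**Figure D3:**
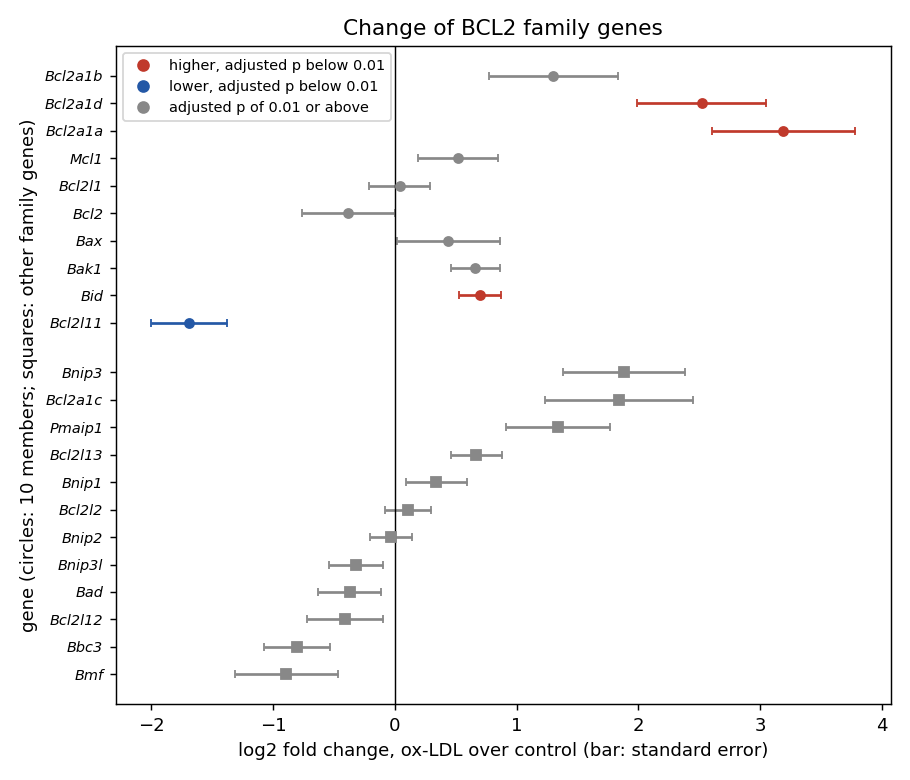
Log2 fold change of ox-LDL over control (horizontal) with its standard error for the 10 BCL2 family genes (circles) and 12 other tested family genes (squares). Red marks a rise and blue a fall at an adjusted p below 0.01. Bcl2a1a, Bcl2a1d and Bid are red, Bcl2l11 is blue and no other family gene passed the threshold.

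Per length, Bcl2a1b was the most abundant member in both groups. In control libraries its FPKM had a median of 437 (339 to 748), followed by Bax at 261 (227 to 272), Mcl1 at 134 (133 to 205) and Bcl2a1d at 137 (80.9 to 164), in order of their means. The ranges of Bcl2a1b, Bax and Mcl1 were apart, while Mcl1 was above Bcl2a1d in only 2 of 5 libraries. Below them came Bak1 with a median of 66.9, Bcl2l1 with 43.3, Bcl2a1a with 39.8, Bid with 19.5, Bcl2l11 with 4.25 and Bcl2 with 1.58. Bak1 was above Bcl2l1 in all 5 control libraries, although their ranges overlapped. The neighbours Bcl2a1d and Bak1, Bcl2l1 and Bcl2a1a, and Bcl2a1a and Bid kept their order in 4 of 5 control libraries.

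In ox-LDL libraries Bcl2a1d moved to the second place, with a median FPKM of 436 (350 to 1090), above Bax at 214 (192 to 486) in 5 of 5 libraries. Bcl2a1a, with a median of 178, was above Mcl1 at 201 in 2 of 5 libraries, so their order is not settled. At the bottom, Bcl2l11 with a median of 1.70 and Bcl2 with 1.57 were no longer apart, and Bcl2l11 was above Bcl2 in 3 of 5 libraries, whereas in control libraries it was above it in 5 of 5.

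**Figure D4:**
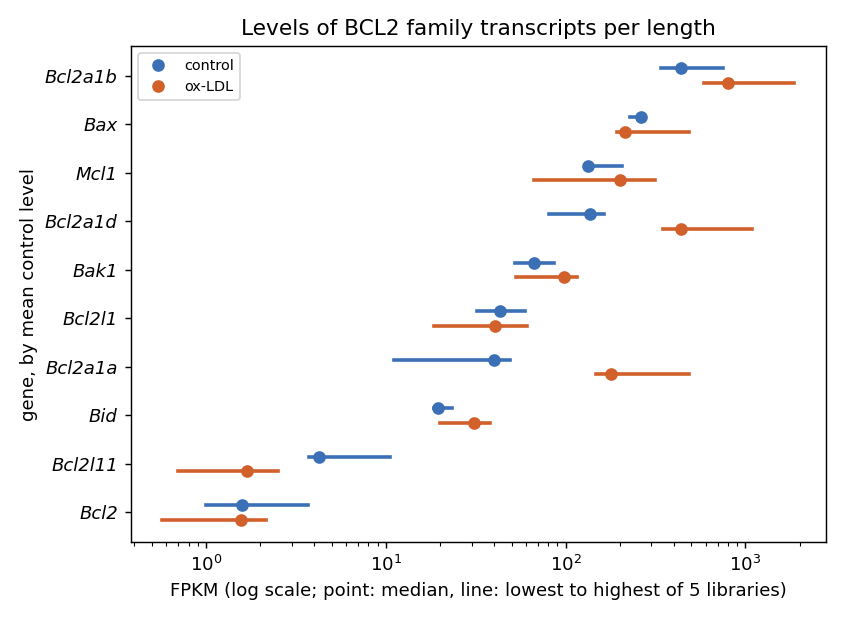
FPKM (horizontal, log scale) of the 10 genes, in order of the mean control level, as the median (point) and the lowest to highest of 5 libraries (line) for control (blue) and ox-LDL (orange). The lines of Bcl2a1d, Bcl2a1a and Bcl2l11 are apart between the groups, the first 2 to the right and the last to the left in ox-LDL libraries.

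The balance of pro-survival and pro-death transcripts was compared within each library as a log2 ratio of summed FPKM, as a description without a test. The 6 pro-survival genes over the 4 pro-death genes were at 1.71, 0.94, 1.23, 1.48 and 1.00 in control libraries and at 1.99, 2.65, 2.25, 1.98 and 2.49 in ox-LDL libraries. The groups did not overlap, with means of 1.27 ± 0.33 and 2.27 ± 0.30 (SD, n = 5 each). With only Bcl2, Bcl2l1 and Mcl1 as the pro-survival genes, the log2 ratio was -0.84 ± 0.23 in control and -0.88 ± 1.06 in ox-LDL libraries, and the groups overlapped. Ox-LDL replicate 2, at -2.69, set the second mean: the other ox-LDL libraries were at -0.76, -0.47, -0.56 and 0.09, each above at least 4 of 5 controls, with a mean of -0.42 ± 0.36 (SD, n = 4). Without that library the ratio with A1 was 2.18 ± 0.24, still without overlap. Leaving this library out of the ratios was chosen after the values were seen.

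Single pairs of genes were compared in the same way. Mcl1 over Bcl2l11 was 4.83 ± 0.36 in control and 6.76 ± 0.59 in ox-LDL libraries on the log2 scale, without overlap. Bcl2l1 over Bcl2l11 was 3.06 ± 0.67 and 4.57 ± 0.34, also without overlap. Both ratios are taken over Bcl2l11, the gene called lower, while neither Mcl1 nor Bcl2l1 passed the test. Mcl1 over Bak1 was 1.15 ± 0.18 and 0.88 ± 0.44, with overlap. Bak1 over Bax, both pro-death genes, was -1.93 ± 0.34 and -1.43 ± 0.99, with overlap. Bcl2l1 over Bax was -2.55 ± 0.36 and -2.74 ± 1.14, and Bcl2 over Bax was -7.11 ± 0.74 and -7.49 ± 0.87, both with overlap (SD, n = 5 each for all pairs). Without ox-LDL replicate 2 the mean of Bcl2l1 over Bax was -2.25 in ox-LDL libraries, above that of the controls, and the groups still overlapped. For Bak1 over Bax that mean was -0.99 without the same library, and the groups no longer overlapped.

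**Figure D5:**
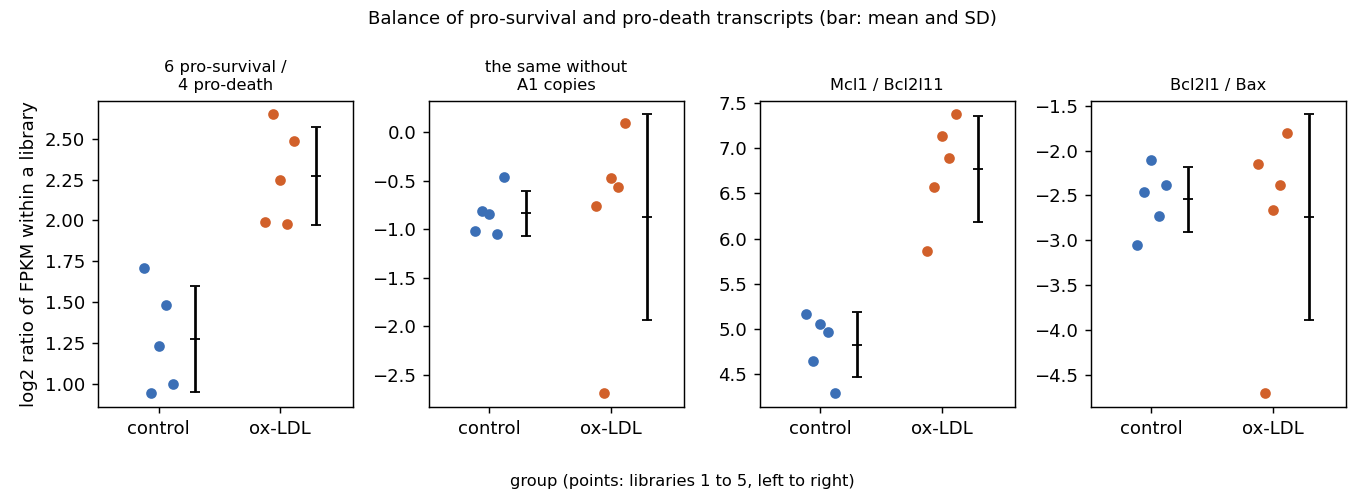
Log2 ratio of FPKM within a library (vertical, a scale of its own in each panel) for control (blue) and ox-LDL libraries (orange), with the mean and SD of 5 libraries beside the points. The groups are apart for the 6 pro-survival over 4 pro-death genes and for Mcl1 over Bcl2l11. They overlap without the A1 copies and for Bcl2l1 over Bax, where ox-LDL replicate 2 is lowest.

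Other genes of the family were taken from a list of 18, of which 17 had a row and 12 were tested. None passed an adjusted p of 0.01 in edgeR, against 14.7% of all genes. At an unadjusted p below 0.05, 4 were higher and 1 lower, and DESeq2 called 2 higher and 0 lower. The median log2 fold change of the 12 tested was 0.04. Pmaip1, which encodes the BH3-only protein Noxa, was at 9.27 ± 2.06 CPM in control and 23.4 ± 20.1 in ox-LDL libraries (log2 fold change 1.34, adjusted p = 0.0374). Bbc3, which encodes the BH3-only protein Puma, was at 9.64 ± 1.12 and 5.53 ± 2.04 CPM (-0.80, adjusted p = 0.0433). Bok, Bik, Hrk, Bcl2l14 and Bcl2l15 had at most 10 counts in any library and were not tested.

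Downstream of the mitochondria, Casp9, the initiator caspase gene of the apoptosome, fell from 41.7 ± 5.20 to 20.7 ± 5.76 CPM (SD, n = 5 each; log2 fold change -1.01, adjusted p = 0.00555, edgeR). Apaf1, which encodes the scaffold of the apoptosome, was at 26.3 ± 6.65 and 36.9 ± 11.4 CPM (log2 fold change 0.49, adjusted p = 0.197).

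Of 8 inhibitor of apoptosis genes, 2 rose and 0 fell in edgeR, against 9.4% and 5.35% of all genes. At an unadjusted p below 0.05, 2 were lower, and DESeq2 called 1 lower. Birc3, which encodes cIAP2, a ubiquitin ligase of TNF receptor complexes, went from 21.2 ± 1.96 to 110 ± 28.3 CPM (log2 fold change 2.37, adjusted p = 1.73e-05, edgeR). Naip2, which encodes an inflammasome sensor with IAP repeats and has similar paralogs, had a log2 fold change of 1.43 (adjusted p = 0.00196). Its paralogs Naip5 and Naip6 had negative values, at -0.44 (adjusted p = 0.317) and -0.92 (adjusted p = 0.0318, edgeR for all). How reads were shared among these paralogs is not stated. Xiap, the direct inhibitor of caspases, was at 68.2 ± 9.84 and 66.5 ± 14.7 CPM (-0.03, adjusted p = 0.923).

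The death receptor list held the highest log2 fold change among these lists, that of Traf1. In it, 5 of 12 tested genes rose and 0 fell past the threshold in edgeR, against 9.4% and 5.35% of all genes. At an unadjusted p below 0.05 it was 0 lower as well, and DESeq2 also called 0 lower. Fas, the receptor itself, rose from 5.58 ± 1.06 to 34.6 ± 9.29 CPM (log2 fold change 2.63, adjusted p = 2.22e-05, edgeR). Cflar, which encodes the caspase-8 inhibitor c-FLIP, rose from 29.2 ± 4.18 to 196 ± 63.2 CPM (2.75, adjusted p = 2.36e-05). Traf1 and Tnfaip3, which encode signal adaptor and ubiquitin-editing proteins of TNF receptors, had log2 fold changes of 4.96 and 2.28. Casp8 was at 85.9 ± 10.1 and 72.4 ± 21.4 CPM (-0.25, adjusted p = 0.44), so the caspase that cuts Bid did not pass the test.

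In the p53 pathway, 1 of 13 tested genes rose and 3 fell, against 9.4% and 5.35% of all genes. Mdm2, the ubiquitin ligase gene for p53, had a log2 fold change of 1.33 (adjusted p = 0.00183, edgeR), and Sesn1, a stress-response gene, fell by 3.81 on the log2 scale (adjusted p = 6.95e-05). Trp53inp1 and Ei24 fell by 1.31 and 0.75. Trp53 itself was at 17.7 ± 2.88 and 23.5 ± 6.83 CPM (log2 fold change 0.41, adjusted p = 0.206).

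Among 16 transcription factor genes known to act on BCL2 family genes, 4 rose and 1 fell, against 9.4% and 5.35% of all genes. Irf8, Relb, Stat3 and Nfkb2 had log2 fold changes of 3.24, 1.57, 1.85 and 2.28. The gene that fell was Foxo3, from 31.2 ± 4.15 to 16.1 ± 4.70 CPM (-0.95, adjusted p = 0.00847, edgeR). Foxo1, also a FOXO gene of this list, was at 5.15 ± 1.72 and 6.06 ± 2.56 CPM (0.24, adjusted p = 0.629, edgeR). Both are named here after their values were seen. Whether either had a part in the fall of Bcl2l11 was not tested. Among 16 genes for proteins that act on BCL2 family proteins, 2 rose and 1 fell, against the same shares of all genes. The kinase genes Pim1 and Pim3 rose (log2 fold changes 2.02 and 2.09) and the kinase gene Akt1 fell (-0.74, adjusted p = 0.00671, edgeR). The medians of the lists were 0.35 for inhibitors of apoptosis, 0.54 for death receptors, 0.17 for p53, 0.81 for the transcription factors and 0.07 for the regulators of proteins, against 0.10 over all genes tested.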

How the data were processed

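RNA of 10 libraries was sequenced on the BGISEQ-500 platform. Alignment by the authors was to mm9 with HISAT2 2.0.5; they sorted them with SAMtools 1.4 and assembled transcripts with StringTie 1.3.3.13. The deposited count table holds expected counts per gene, not normalized, of which 13.6% are not whole; the counting step and its use of strand are not given in the sources used here. The authors also deposited one value per gene and library with no unit named. Counts divided by these values and the library total gave a near constant length per gene (median coefficient of variation 1.77% over 10951 genes), so the deposited values were treated as FPKM.

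Of 39488 rows, 9788 circular RNA rows (left out) and 6318 rows without a paired symbol (kept) were found, and 22818 of 23382 NCBI identifiers were paired with a symbol through the RefSeq table of GRCm38.p6. Positions came from GENCODE vM1 on NCBIM37, which is mm9. Counts were rounded, filtered with filterByExpr, scaled by TMM and tested in edgeR 4.0.16 (R 4.3.3) by the robust quasi-likelihood test with Benjamini-Hochberg adjustment over all 12654 genes tested, called at 0.01. The study names no test for these counts, and its FDR cutoff was used. Each standard error is the log2 fold change divided by the root of its F value. Single values were compared by exact permutation. P-values measure the spread between these 10 libraries. CPM of marker genes were scaled by library size alone. The procedure was tested on simulated data.

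The 10 genes, the lists and the tests were chosen with earlier results of these data known. The genes named were the 10 members, up to 4 genes per list with the lowest adjusted p among those called, some apoptosis genes whatever they showed (Cflar, Birc3, Xiap, Apaf1, Pmaip1, Bbc3 and Trp53) and the 3 genes most like the A1 sum; other names (such as Casp8, Foxo3 and overlapping genes) were added after their values were seen. Some results of the apoptosome list are not reported here. Alternatives were DESeq2 1.42.0, limma-voom (limma 3.58.1), other scalings and filters, libraries left out, the replicate number as a block, limma on log2(FPKM + 1) or log2(FPKM + 0.1), removal of each library's length trend, and other row sets.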

Additional observations from a re-analysis of the deposited data

Results flagged for a closer look

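Among 22 groups of 5 libraries examined (the 10 genes and the A1 sum in each condition), 6 held a library whose distance to the next was above 0.71 of the group's range. For a single group of normally distributed values, chance gives about 1 in 20. The 22 groups are not independent, since the A1 sum holds its own copies and genes share libraries, so the count of 6 is no test against that share. Of the 6, 5 were ox-LDL replicate 2, as the highest library: Bcl2a1a (564 CPM against 191 in the next, share of the range 0.782), Bcl2a1b (2020 against 702, share 0.773), Bcl2a1d (1240 against 350, share 0.852), the A1 sum (3900 against 1260, share 0.801) and Bax (635 against 193, share 0.862). These are the short genes of the family, and this library had the strongest trend of deviations on gene length; the part of that trend in these values was not tested. The remaining one was Bcl2l1 in ox-LDL replicate 5, at 169 CPM against 84.9 in the next library (share 0.879).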

How the results depend on the processing

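Over 24 other fits of the 10 genes, 195 of 240 fold changes kept their direction and side of the threshold, 25 lost a call, 3 gained one and 17 changed sign. The number of members called higher (3) was 0 without a filter on low counts, 0 with the replicate block (adjusted p = 0.0109 for Bcl2a1a and 0.0196 for Bcl2a1d), 5 with the length trend removed (Bak1 and Bcl2a1b added) and 1 to 3 with one library left out. The number called lower (1) was 0 by limma on log2(FPKM + 1) without a filter and 0 with the fold cutoff added, and 1 to 1 with one library left out. Of all genes, 1866 were called in the reported fit, 3009 by DESeq2, 1262 to 3257 with one library left out (3257 without ox-LDL replicate 2), 3599 without 3 libraries (control replicate 5 and ox-LDL replicates 2 and 5), 1026 by limma on log2(FPKM + 1) without a filter, 2870 with the length trend removed, 3365 at an adjusted p below 0.05 and 849 with the fold cutoff added. The A1 sum had 1.81 by DESeq2 (adjusted p = 0.00336) and 1.72 with the length trend removed (adjusted p = 1.48e-04), both past the threshold, and 0.98 to 2.03 with one library left out. Over all alternatives its adjusted p was 1.48e-04 to 0.145. Its log2 fold change was 0.58 without the 3 libraries.

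Bcl2l1 changed sign in 12 of 24 fits: -0.03 by limma-voom, -0.14 with upper-quartile scaling, -0.16 with library size alone, -0.03 without a filter, -0.04 with the replicate block, -0.31 without the 3 libraries, -0.24 and -0.25 by limma on FPKM with a pseudocount of 1 and 0.1, -0.24 without a filter on FPKM, and -0.27 to 0.12 with one library left out (-0.02 without control replicate 1 and 0.00 without control replicate 5). Bax was -0.30 without ox-LDL replicate 2 (range -0.30 to 0.61 with one library left out), -0.51 without the 3 libraries and -0.05 in each of the 3 fits of FPKM. Bid lost its call in 16 of 24 fits (adjusted p 4.75e-04 to 0.217), Bcl2a1d in 6, Bcl2a1a in 2 (0.015 without a filter and 0.0109 with the replicate block) and Bcl2l11 in 1 (-1.28, adjusted p = 0.0199). The causes were not tested. The difference in the Bcl2a1b share was -21.7 to -19.4 percentage points (ox-LDL minus control) with one library left out. The median of all genes was 0.10 with TMM and -0.09 with library size alone.

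The replicate numbers were not shown to pair the libraries: deviations of same-numbered libraries had correlations of -0.285 to 0.443, and 4 of 5 controls correlated better with another number. At this depth, genes with few counts, such as Bok and Hrk, could not be tested.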
